A study of Drosophila melanogaster with 8 samples.

Results

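Cluster 3 was the group of nuclei that the study named enterocytes, in single-nucleus RNA sequencing of whole *Drosophila melanogaster* larvae. Its members were the nuclei that the deposited annotation places in that cluster, and they numbered 2055 of 30819 (6.67%). They are compared here with the 28764 other nuclei and with cluster 21, which the study named gut stem cells and which held 452 nuclei. Enterocytes are the absorptive and secretory cells of the midgut epithelium. They release proteases, glycosidases, lipases and lysozymes into the lumen, take up the products and metals, and are sealed to each other by smooth septate junctions. In wandering larvae the larval midgut is about to be removed in response to ecdysone, and progenitor cells build its replacement.

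All 8 samples were wild type by their labels and carried the same genotype, w1118, so no condition was compared. Each was a pool of 16 wandering third-instar larvae, 8 male and 8 female, frozen 5 days after egg deposition. Nuclei were released from whole bodies and sorted by their DNA dye before droplets were formed. A sample therefore averages over animals, sexes and all regions of the gut. The libraries are named by the number in the barcodes, because the files do not pair that number with a sample name. Each unique molecular identifier (UMI) stands for one RNA molecule read near its 3′ end, so counts were not divided by gene length. A library held 3090 to 5405 nuclei and 3815618 to 6488757 UMIs, after the authors had subtracted estimated ambient RNA. The summed level of a gene in a group of nuclei is given as CPM, the count scaled to a group total of 1000000 UMIs.

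Library 4 stood apart and is given separately throughout. It supplied 1508 of the 2055 nuclei (73.4%), while libraries 1, 2, 3, 5, 6, 7 and 8 supplied 161, 40, 21, 28, 189, 41 and 67. Cluster 3 made up 27.9% of library 4 (95% Wilson interval 26.7 to 29.1). Its share ran from 0.642% in library 3 to 4.32% in library 6 among the others, with a mean of 2.04% ± 1.55 (SD, n = 7). Such intervals cover counting error only. No other library came near library 4, and the mean over all of them, 5.27% ± 9.25 (SD, n = 8), describes none of them. The share of cluster 21 in library 4 was 1.42%, within the range of 0.960 to 2.25% over all libraries.

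**Figure D1:**
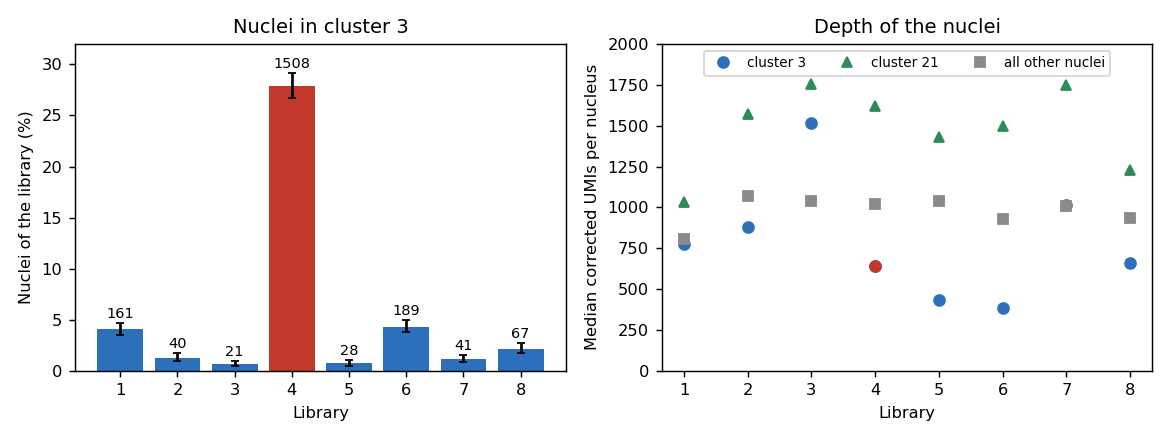
Left, nuclei in cluster 3 as a percentage of each library, with 95% Wilson intervals as error bars and the number of nuclei above each bar. Right, median corrected UMIs per nucleus in cluster 3 (circles), cluster 21 (triangles) and all other nuclei (squares). Red marks cluster 3 of library 4, which reached 27.9% of its library against at most 4.32% elsewhere.

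The nuclei of cluster 3 were shallower than those of the gut stem cells. The median UMIs per nucleus in cluster 3 were 774, 882, 1518, 640, 432, 382, 1017 and 661 in libraries 1 to 8, against 1034 to 1753 in cluster 21. Cluster 3 was lower in all 8 libraries, by a mean of 697 UMIs ± 332 (SD of the difference). The difference was larger than the spread between libraries by an exact permutation test that flips signs within pairs (two-sided, adjusted p = 0.0312 over 4 comparisons, raw p = 0.00781, the smallest that 8 pairs allow). The median number of genes was 526.4 ± 249 against 799 ± 89.5 (SD, n = 8), lower in 7 of 8 libraries (same exact test, adjusted p = 0.0469). Without library 4 the adjusted p of these exact tests rose to 0.0625 and 0.0938, with differences of -657 UMIs and -261 genes, 7 pairs allowing no raw p under 0.0156. Against all other nuclei, whose median UMIs were 805 to 1072, cluster 3 was lower in 6 of 8 libraries, and the difference of -193 UMIs ± 350 did not pass the exact test (adjusted p = 0.208). The median number of genes differed from all other nuclei by -36.9 ± 231 (adjusted p = 0.680, same exact test). Fewer nuclei of cluster 3 shared a barcode with another library, 2.07% ± 2.11 against 7.60% ± 2.86 (SD, n = 8), which was lower in all but library 8 (same exact test, p = 0.0156). No shared barcode was found among the 40, 21 and 28 nuclei of libraries 2, 3 and 5, which allows shares of up to 7.5, 14.3 and 10.7%. In cluster 21 the share was 1.24% ± 1.44 (SD, n = 8), so a low share was not particular to cluster 3.

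The 5 genes given as enterocyte markers of the cluster are described first. The clusters had been built and named from these same counts, so high levels in cluster 3 are no independent check of the name. *Jon65Aiii* (chromosome 3L, 6050757 to 6051690, plus strand, BDGP6) encodes a chymotrypsin-like digestive protease. It was at 7124, 285, 63.5, 1789, 136, 441, 211 and 581 CPM in cluster 3 of libraries 1 to 8, and at 24.1 to 155 CPM in all other nuclei. Cluster 3 was higher in 7 of 8 libraries, library 3 being the exception. In libraries 3 and 5 the gene had fewer than 3 counts, which equal 112 and 163 CPM, so neither library is resolved. *LysB* (3L, 1207371 to 1207981, plus strand), a lysozyme of the digestive type, was at 3996, 743, 201, 3126, 304, 780, 242 and 204 CPM against 52.4 to 460 CPM, higher in 8 of 8. Libraries 1 and 4 carried most of both genes. *LysB* has near-identical neighbours, and its count may hold reads of them.

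The other markers were rare. *mesh* (3R, 31178389 to 31195762, minus strand), a membrane protein of the smooth septate junction, was at 787 CPM in library 1 and at 0 to 79.8 CPM in the other libraries, against 0.737 to 13.9 CPM in all other nuclei. No *mesh* molecule was counted in libraries 5 and 7, where 3 counts would have been 163 and 57.6 CPM. *Acbp3* (3L, 7130874 to 7131505, plus strand), an acyl-CoA binding protein, was at 227 CPM in library 4 and at 0 to 90.2 CPM elsewhere. *Mal-A4* (2R, 8458815 to 8460884, plus strand), a maltase, was at 122 CPM in library 8, at 74.0 in library 4, at 60.4 in library 1 and at no more than 33.7 in the rest. Together the markers held 1.20% of the UMIs of cluster 3 in library 1, 0.525% in library 4 and 0.0341 to 0.132% in the other 6, against 0.00851 to 0.0638% of all other nuclei. Their summed level was above that of all other nuclei in every library, but by 32.7-fold in library 1 and 1.83-fold in library 3.

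The same held nucleus by nucleus at equal depth. Counts were rounded and each nucleus was thinned to 300 UMIs, which left out 81 of the 2055 nuclei, 8 of them from library 4. *Jon65Aiii* was then found in 39.1% of the nuclei of cluster 3 in library 4, in 21.1% in library 1 and in 0 to 8.46% in the other 6. The share in all other nuclei, which hold few midgut cells and give the background, was 0.429 to 3.45%. Without thinning the shares in cluster 3 were 71.2% in library 4 and 18.8% on average in the other 7, at a background of 1.54 to 11.2%. In library 3 it was found in 0 of 19 thinned nuclei, which allows a share of up to 15.8%. *mesh* was found in at most 6.83% of thinned nuclei in any library.

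**Figure D2:**
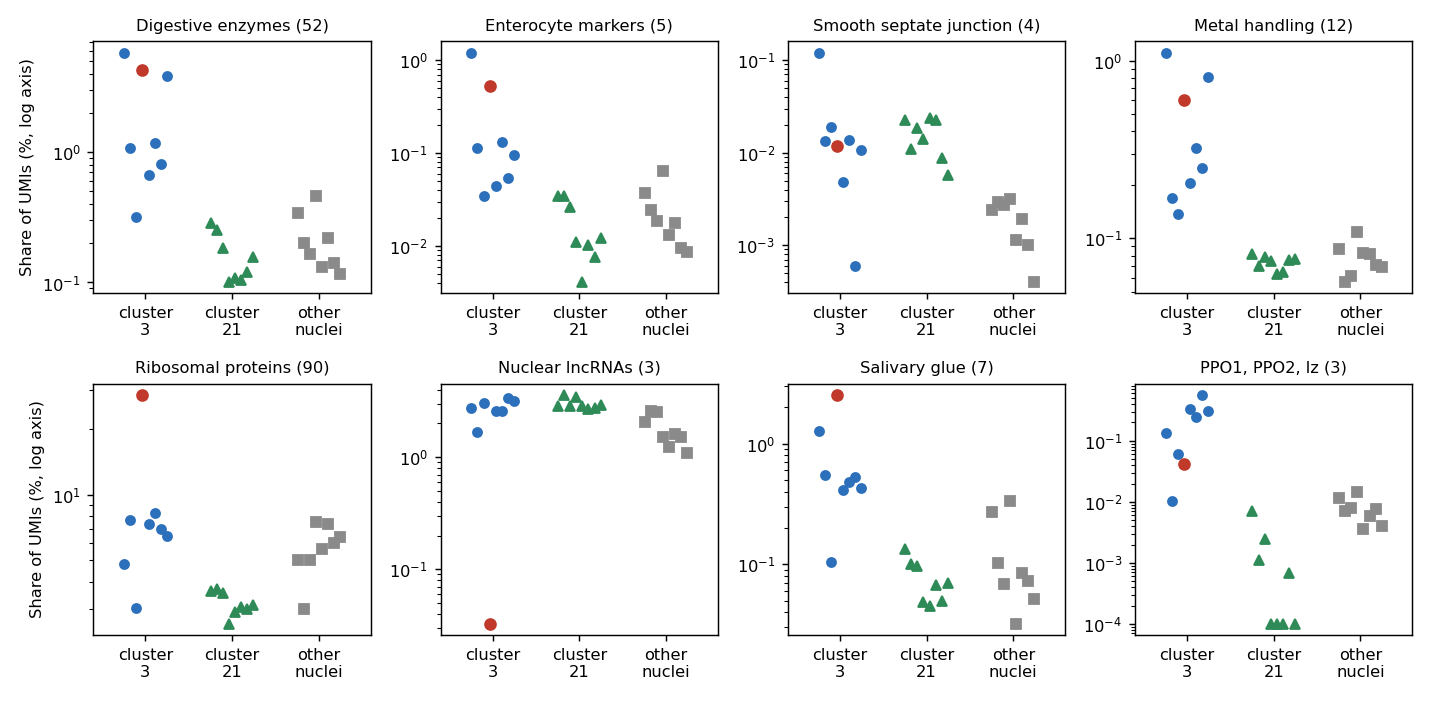
Share of UMIs, in percent on log axes, held by 8 gene lists in cluster 3 (circles), cluster 21 (triangles) and all other nuclei (squares). Each point is 1 of the 8 libraries, placed from library 1 on the left to library 8 on the right, red marks cluster 3 of library 4, numbers in brackets are genes found in the matrix, and values of 0 are drawn at 0.0001. Digestive enzymes lay above all other nuclei in every library, while ribosomal protein genes and nuclear lncRNAs set library 4 apart.

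Digestive enzymes were higher in cluster 3 in every library. The list of 52 genes found in the matrix (serine proteases, carbohydrases, lipases and lysozymes) held 5.79% of the UMIs of cluster 3 in library 1, 4.27% in library 4 and 3.82% in library 8. It held 0.316 to 1.17% in libraries 2, 3, 5, 6 and 7. All other nuclei were at 0.116 to 0.465% and cluster 21 at 0.101 to 0.285%, so cluster 3 was above both in 8 of 8 libraries. The ratio to all other nuclei of the same library ran from 1.91 in library 3 to 33.0 in library 8. All other nuclei of libraries 4 and 1 were also the highest in these genes, at 0.465 and 0.343%.

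The serine proteases, which cleave dietary protein in the lumen, made up most of this. *Jon65Aiv* was at 14823 CPM in library 1, at 4074 in library 4, at 2453 in library 8 and at 216 to 1044 in the other 5. *Jon99Cii* was at 6966 CPM in library 8, at 5434 in library 4 and at 265 to 1865 in the rest. The libraries thus differed in which proteases led. In library 1 the leading genes lay next to each other on 3L, namely *yip7* (6035216 to 6036175, 7694 CPM), *Jon65Aiv* (6039155 to 6040135) and *Jon65Aiii*. In library 8 *Jon66Ci* (7208 CPM) and *Jon99Ciii* (5440 CPM) led together with *Jon99Cii*, and *yip7* was at 757 CPM. *Jon99Cii* and *Jon99Ciii* are close copies whose counts may not be fully separated, and the same applies to the trypsins and to *Amy-p* and *Amy-d*.

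Starch and fat digestion showed the same unevenness. *Amy-p*, a secreted amylase, was at 1219 CPM in library 8, at 284 in library 4 and at 0 to 44.5 in the other 6. *Amyrel*, an amylase-related enzyme, was at 1090 CPM in library 8, at 189 in library 4 and at no more than 123 elsewhere. *mag*, a lipase of the gut lumen that acts on dietary lipid and sterol, was at 1037 CPM in library 8 and 472 in library 4, against 26.4 to 164 in the other 6. Library 8, with 67 nuclei, was the highest in each of them. The 8 lipases as a list were above all other nuclei in 8 of 8 libraries. The carbohydrases were above in 5 of 8.

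Proteins that line and protect the gut followed. *Peritrophin-15a*, a component of the peritrophic matrix that separates food from the epithelium, was at 1001 CPM in library 4, at 964 in library 1 and at 23.6 to 500.0 in the others, against 9.21 to 326 CPM in all other nuclei. *LysD* was at 4515 and 4443 CPM in libraries 4 and 1, and at 413 to 1033 in the rest. *PGRP-SC2*, an amidase that degrades bacterial peptidoglycan, was at 6462 CPM in library 8. It was at 567 CPM in library 1, at 477 in library 4 and at 19.7 to 148 in the other 5. All other nuclei were at 7.51 to 40.3 CPM. In libraries 3 and 7, where no nucleus reached a corrected count of 0.5, the level was under that of 3 counts and no difference was detectable. The 12 antimicrobial peptide genes were above all other nuclei in libraries 1 and 2 and below in the other 6, with shares of 0.00584 to 0.0797% in cluster 3.

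Metal handling was high in every library. The 12 genes of this list held 1.11% of UMIs in library 1, 0.814% in library 8, 0.601% in library 4 and 0.138 to 0.324% in the others, against 0.0569 to 0.108% of all other nuclei, and the groups did not overlap. *MtnA*, a metallothionein that binds copper and other metals, was at 5852, 714, 599.5, 3457, 574, 1001, 888 and 1702 CPM in libraries 1 to 8, against 55.2 to 284 CPM. *Fer1HCH*, the ferritin heavy chain of iron storage, was at 395 to 4237 CPM against 165 to 303 CPM. *Ctr1A*, a copper importer, was different. It was at 324 to 475 CPM in libraries 1, 5, 6, 7 and 8, but at 20.3 CPM in library 4, below the 28.9 to 52.7 CPM of all other nuclei. In libraries 2 and 3 it was at 39.9 and 27.2 CPM. These are under 3 counts, which equal 78.6 and 112 CPM there, so no difference from all other nuclei was detectable.

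The genes of the epithelium itself were less regular than the secreted products. The 4 genes of the smooth septate junction (*mesh*, *Tsp2A*, *Ssk* and *hoka*, the last listed as *CG13704*) held 0.120% of UMIs in library 1 and 0.000595 to 0.0189% in the other 7. Cluster 3 was above all other nuclei in 7 of 8 libraries but above cluster 21 in only 4 of 8, with a median ratio to cluster 21 of 0.933. In libraries 5 and 7 the junction share of cluster 3 was under that of 3 counts. The genes of the pleated septate junction, which seals ectodermal epithelia, were below cluster 21 in all 8 libraries. The 9 midgut transcription factors were above all other nuclei in 5 of 8 libraries and at 0.0185% in library 4, where all other nuclei were at 0.0559%. *GATAe*, the GATA factor that maintains endoderm identity, was at 122, 0, 0, 16.0, 0, 147, 15.2 and 67.9 CPM in cluster 3, below the 91.0 to 220 CPM of cluster 21 in all but libraries 1 and 6. In libraries 2, 3, 5 and 7 it was under 3 counts, which equal 78.6, 112, 163 and 57.6 CPM. The limits of libraries 3 and 5 lie within the range of cluster 21, so a lower level is not certain there. *Ptx1*, a homeobox gene of a midgut region, was at 366 and 467 CPM in libraries 1 and 2 and at 0 to 19.8 in the rest.

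**Figure D3:**
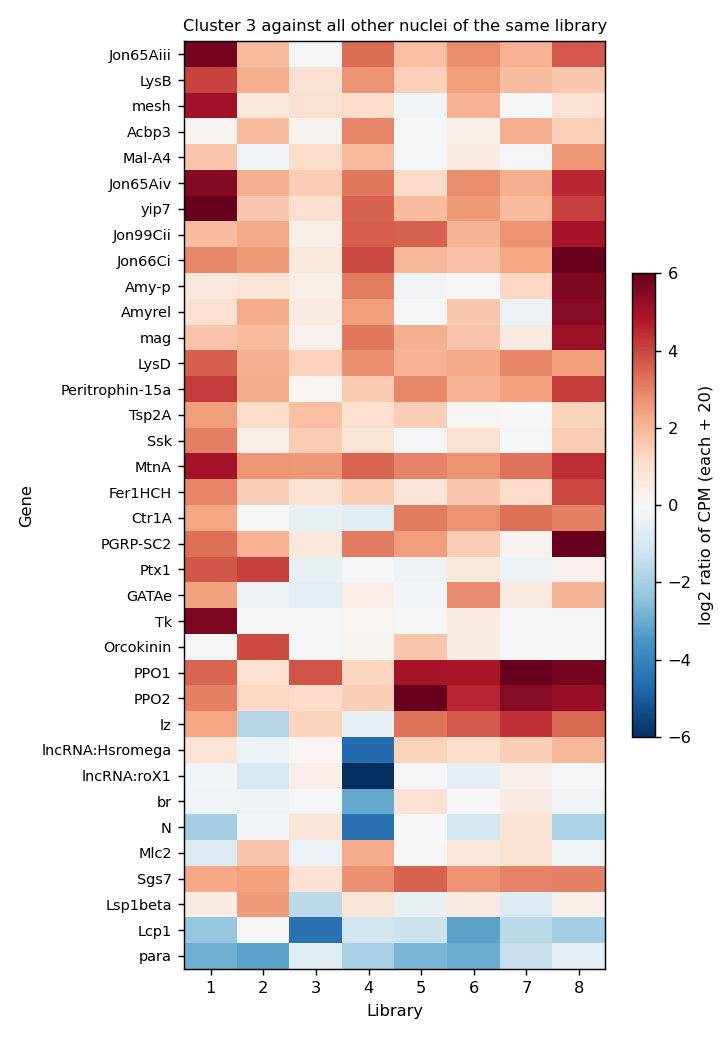
Log2 ratio of the CPM in cluster 3 to the CPM in all other nuclei of the same library, 20 CPM being added to each, for 36 genes (rows) in the 8 libraries (columns). Red is higher and blue lower in cluster 3, on a scale from -6 to 6. Digestive and metal-handling genes were red in most libraries, *PPO1* and *PPO2* most strongly in libraries 5 to 8, and *lncRNA:Hsromega*, *lncRNA:roX1*, *br* and *N* were blue in library 4.

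Cluster 3 of library 4 was set apart by RNAs that stay in the nucleus. *lncRNA:Hsromega* (3R, 21296127 to 21317836, plus strand) forms the omega speckles of the nucleoplasm. It was at 271 CPM in cluster 3 of library 4, against 9874 to 28473 CPM in cluster 3 of the other 7 libraries, a range that did not overlap. *lncRNA:roX1*, which coats the male X chromosome in dosage compensation, was at 40.1 CPM against 2928 to 14755 CPM. *lncRNA:Hsromega* was found in 76 of the 1508 nuclei of library 4 (5.04%) and in 57.1 to 92.7% of cluster 3 elsewhere. At 300 UMIs per nucleus the shares were 1.40% and 55.0 to 92.1%. The other nuclei of library 4 did not share this, since 57.2% held it at that depth, and all other nuclei of the other libraries were at 45.4 to 75.4%. In cluster 21 of library 4 it was 96.1%.

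Transcripts of developmental regulators were low there too. *br*, an ecdysone-induced transcription factor of metamorphosis, was at 567 CPM in library 4 and at 4053 to 9396 CPM in the other 7. *N*, the Notch receptor, was at 37.8 CPM against 309 to 4065 CPM. The 15 genes of the ecdysone and cell death list held 0.209% of UMIs in library 4 and 0.998 to 2.01% elsewhere, and all other nuclei of library 4 were at 0.911%. *EcR*, the ecdysone receptor, was at 206 CPM in library 4 and at 1310 to 4178 CPM in the other libraries, and *Atg8a*, an autophagosome protein, did not follow, being at 800.0 CPM in library 4 and at 254 to 1632 CPM elsewhere.

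Ribosomal protein genes held 28.6% of the UMIs of cluster 3 in library 4, against 3.02 to 8.20% in cluster 3 of the other libraries and 7.54% in all other nuclei of library 4. Muscle genes held 3.42%, with *Mlc2*, a myosin light chain, at 10351 CPM. Salivary glue genes held 2.52%, with *Sgs7* at 10394 CPM, fat body genes 3.46% and cuticle genes 3.70%. In all other nuclei of library 4 these lists held 1.05, 0.337, 3.30 and 7.44%. Relative to those nuclei, digestive enzymes were 9.18-fold higher in cluster 3, salivary glue 7.48-fold, ribosomal proteins 3.79-fold, muscle 3.25-fold and fat body 1.05-fold, and cuticle stood at 0.497 of their level. Markers of several organs were thus present together. Salivary glue, ribosomal protein and muscle genes were above the other nuclei as the digestive genes were, fat body genes were level with them and cuticle genes were below. Their part in the digestive result was not tested.

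The nuclei of library 4 in cluster 3 differed in several of these lists by little more than counting error. Their digestive enzyme share had a median of 3.99% and an interquartile range of 3.45 to 4.55%, a width of 1.11 points. Counting error at their depths would give a width of 1.08 points. Fat body genes behaved the same way, with a width of 0.987 points beside 0.974 from counting error. For muscle, salivary glue and cuticle genes the widths were 1.16, 0.957 and 1.27 points beside 0.969, 0.836 and 1.01. Ribosomal protein genes were wider, at 5.56 points beside 2.41. In cluster 3 of the other 7 libraries the widths were 1.97 points beside 0.787 for fat body, 1.17 beside 0.910 for digestive, 0.866 beside 0.763 for cuticle and 0.569 beside 0.459 for salivary glue genes. Digestive widths under counting error were found in cluster 3 of library 3 (0.124 points beside 0.194) and library 8 (0.653 beside 1.01). Cluster 3 of libraries 1, 2, 5, 6 and 7 was wider than counting error. The other nuclei of library 4 had a width of 0.237 points beside 0.287. Counting error was taken at the mean share, which high nuclei raise. In these other nuclei the median was 0.155% and the 95th percentile 1.96%, so their width leaves out an upper tail. In the other nuclei of library 4 the 95th percentile of the fat body share was 17.7% and that of cluster 3 was 4.88%.

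**Figure D4:**
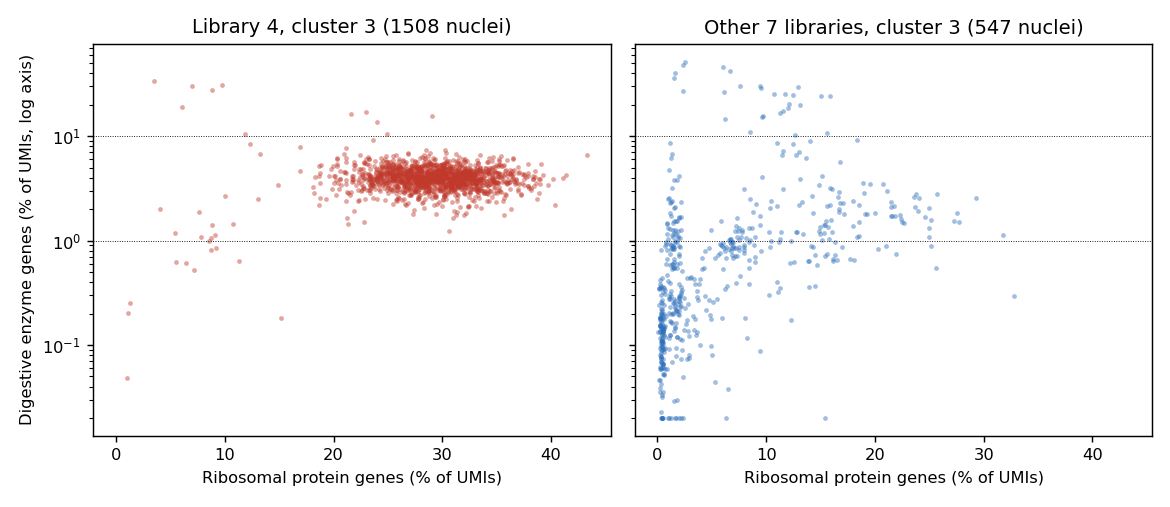
Each point is 1 nucleus of cluster 3, with the share of its UMIs in ribosomal protein genes (horizontal, %) and in digestive enzyme genes (vertical, %, log axis, values under 0.02 drawn at 0.02), for library 4 (left, 1508 nuclei) and the other 7 libraries (right, 547 nuclei). Dotted lines mark 1% and 10%. Library 4 forms a single cloud around 29.4% and 3.99%, while most nuclei of the other libraries lie below 1% on the vertical axis.

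Outside library 4 most members held few digestive transcripts. Of the 547 nuclei, 360 (65.8%) had under 1% of their UMIs in digestive enzymes, 146 had 1 to 5%, 13 had 5 to 10% and 28 (5.12%) had 10% or more. Of these 28, 24 were in library 1, 3 in library 8 and 1 in library 6. These bands are ranges of a score and not cell types, with 1 nucleus between 9 and 10% and 2 between 10 and 11%. Smooth septate junction genes, which the bands did not use, were found in 16 of the 28 (57.1%), in 4 of the 13, in 20 of the 146 (13.7%) and in 29 of the 360 (8.06%), at median depths of 822, 638, 651 and 576 UMIs. These counts pool nuclei, which are not replicates, and library 1 held 14 of the 16. There 18.9% of nuclei under 1% and 23.2% of those at 1 to 5% also held a junction gene. Between these bands the share rose in libraries 1, 3 and 8 and did not rise in libraries 2, 5, 6 and 7. In library 4, 11 of 1508 nuclei reached 10%. Their median ribosomal share was 11.9%, 5 of the 11 held a junction gene and 3 held *lncRNA:Hsromega*. The 1285 nuclei of library 4 between 1 and 5% had a median ribosomal share of 29.6%, and 10.9% of them held a junction gene.

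Genes of another cell type were present in cluster 3. *PPO1* and *PPO2*, the prophenoloxidases of crystal cells (blood cells that melanise wounds), and *lz*, the Runx factor of that lineage, were put on a list after their values were seen. *PPO1* (2R, 17887220 to 17889973, minus strand), which the rule for the largest differences also picked, was at 536, 34.6, 382, 127, 762, 929, 2590 and 1294 CPM in cluster 3 of libraries 1 to 8, against 4.80 to 40.9 CPM in all other nuclei. *PPO2* was at 2271 CPM in library 5, at 1834 in library 7 and at 68.3 to 1334 in the others. *lz* was at 1205 CPM in library 7 and at 0 to 542 elsewhere. A summed count of 1.5 or more of *PPO1* and *PPO2* was found in 41 of the 547 nuclei outside library 4 (7.495%), in 84 of 1508 in library 4 (5.57%) and in 174 of the other 28764 (0.605%), of which 74 were in cluster 15, named fat body. Of the 41 nuclei outside library 4, 40 had under 1% of their UMIs in digestive enzymes and the highest had 2.30%. Library 7 held 11 of the 41 in its 41 nuclei. The 5 general hemocyte markers were above all other nuclei in libraries 5 and 7, by 1.58-fold and 1.25-fold, and below in the other 6. These libraries also had the highest shares of the crystal cell list, 0.335 and 0.563% of UMIs, and all other nuclei include those named hemocytes.

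Further genes were high in 1 or 2 libraries. *Tk*, the tachykinin hormone of enteroendocrine cells, was at 989 CPM in library 1 and at no more than 9.78 elsewhere. *Orcokinin*, another gut peptide gene, was at 284 CPM in library 2, at 54.4 in library 5 and at no more than 8.85 elsewhere. Both were picked after their values were seen, from a list that was mostly lower. The 12 enteroendocrine genes together were above all other nuclei in 2 of 8 libraries (1 and 5), with a median ratio of 0.360. In library 2 they held 0.0528% of UMIs in cluster 3 against 0.155% in all other nuclei. They were above cluster 21 in 8 of 8 libraries. Peptide hormone genes with a summed count of 1.5 or more were found in 6 of the 547 nuclei outside library 4 (1.10%). They were found in 8 of 1508 in library 4 (0.53%) and in 91 of the other 28764 (0.316%), of which 26 were in cluster 15. *5-HT7*, a serotonin receptor, was at 1933 and 2353 CPM in libraries 1 and 2, at 186 in library 6 and at no more than 21.3 in the others. *Elk*, a voltage-gated potassium channel, was at 4970 and 3036 CPM in libraries 7 and 8 but at 36.7 in library 4. *Egfr*, the epidermal growth factor receptor and a gene of the gut progenitor list, was at 5498 CPM in library 8 and at 18.1 to 991 in the other 7. Markers of the neuron, trachea and cuticle lists were below all other nuclei in all 8 libraries. The 5 Malpighian tubule genes were above them in 7 of 8 libraries, with a median ratio of 2.61, and above cluster 21 in 8 of 8. Their shares were small, at 0.00101 to 0.00924% in cluster 3 and 0.00116 to 0.00413% in all other nuclei. In libraries 2, 3, 5, 7 and 8 the share in cluster 3 was under that of 3 counts. The tally is therefore resolved only in libraries 1, 4 and 6, at ratios of 1.59, 2.44 and 3.86 to all other nuclei. The 3 genes of the visceral muscle list were at 0 in 7 libraries and at a total share of 0.000116% in library 4. All other nuclei were at only 0 to 0.000473%. With 3 counts equal to 19.5 to 163 CPM in cluster 3 of those 7 libraries, these values cannot show whether visceral muscle was absent.

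The libraries therefore did not repeat each other. Over 2610 genes with a mean above 50 CPM, the log2 CPM of cluster 3 correlated between libraries other than 4 with Pearson's r = 0.377 to 0.774, and between library 4 and the others with r = -0.0319 to 0.568. The same measure was 0.886 to 0.941 for cluster 21 and 0.774 to 0.987 for all other nuclei. Within a library, cluster 3 correlated with all other nuclei at 0.513 to 0.813. These are correlations across genes, which are not independent, and small sums lower them, the smallest sum being 18377 UMIs in library 5. In libraries 2, 3, 5 and 7 cluster 3 correlated more highly with its own other nuclei (0.793, 0.813, 0.694 and 0.802) than with cluster 3 of any other library, the highest such values being 0.758, 0.679, 0.665 and 0.758.

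Sums per library were next compared across all genes with edgeR's quasi-likelihood test. The clusters had been built from the same counts, so the calls describe them and are no test. A gene was called when its Benjamini-Hochberg adjusted p was below 0.05 and its log2 fold change was at least 1 in size. Against all other nuclei 7800 genes could be fitted, of which 494 (6.33%) were called higher and 599 (7.68%) lower in cluster 3. With the library as a block the counts were 366 and 840. Without library 4 they were 288 of 7291 higher (3.95%) and 464 lower (6.36%), and 272 genes were higher in both, which is 55.1% of the first list and 94.4% of the second. Of the genes called lower, 335 were shared. Scaling mattered. Library totals in place of TMM factors gave 524 higher and 396 lower, so that 56.96% of calls were higher in place of 45.2%, and DESeq2 gave 1367 higher and 384 lower with the median of all genes raised by 0.50 on the log2 scale.

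Over all fitted genes 6.33% were called higher, and 3.95% without library 4, which is the background for each list below. Within the digestive list 34 genes could be fitted, and 31 were called higher, with a median log2 fold change of 3.29 beside -0.06 over all genes. Genes of a list can pass the filter on low counts through cluster 3, where they are high, so such counts only describe the list. Without library 4 the count was 28 of 32, with a median of 3.06 beside -0.42 over all genes, and DESeq2 also called 31 higher. All 18 fitted serine proteases were called higher in both settings. The 5 markers were all called higher with a median of 3.86, but without library 4 only 4 could be fitted and 3 were called, *Acbp3* falling to 2.15 ± 0.83 (SE) from 3.54 ± 0.61. *mesh* was at 5.04 ± 0.82 with and 5.06 ± 0.85 without library 4, but at 2.69 without library 1, where *Jon65Aiii* was at 3.12. With the library as a block *mesh* was at 3.52 and *Jon65Aiii* at 2.95, in place of 4.51, and both stayed called. Of the metal-handling genes 7 of 10 were called higher, and 6 of 9 without library 4. For junction genes it was 4 of 4 and 3 of 3, and for midgut transcription factors 3 of 9 and 2 of 9. All 7 salivary glue genes were called higher in both settings, with medians of 2.73 and 2.29, beside the digestive genes. Their part in the digestive result was not tested. The 83 fitted ribosomal protein genes had a median of 0.60, which became -0.20 without library 4.

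**Figure D5:**
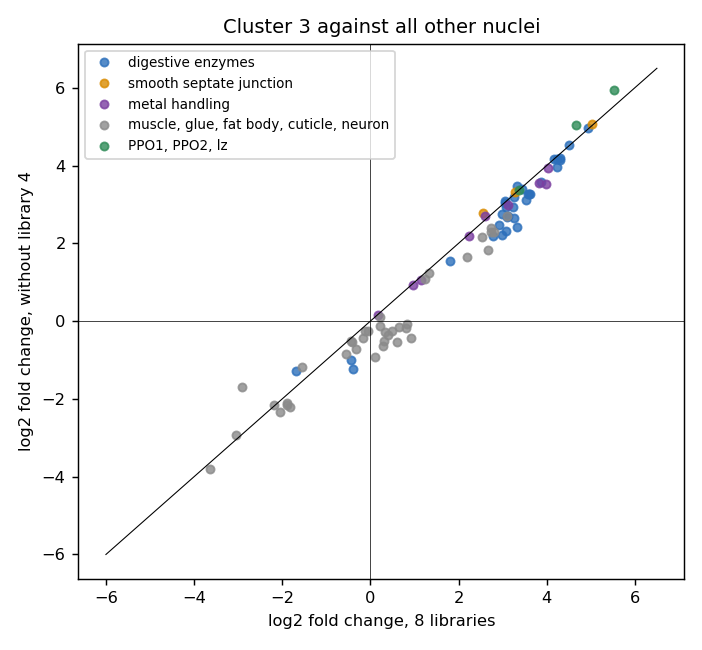
Log2 fold change of cluster 3 against all other nuclei with all 8 libraries (horizontal) and without library 4 (vertical), for fitted genes of the lists named in the key. Points near the diagonal, such as the digestive enzymes, kept their size, while part of the muscle and fat body genes (grey) moved from above to below 0.

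The 10 largest differences among genes with at least 50 CPM on average were *asRNA:CR44370*, *5-HT7*, *PGRP-SC2*, *PPO1*, *CG15423*, *Elk*, *CG8560*, *CG17109*, *Pebp1* and *mesh*, with log2 fold changes of 5.91 to 5.04. Only *PGRP-SC2* and *mesh* among them belonged to the gut lists. With the library as a block *5-HT7* was at 3.41, *PGRP-SC2* at 3.44, *CG8560* at 3.29 and *Pebp1* at 3.81, in place of 5.91, 5.57, 5.14 and 5.09, and all 4 stayed called. Without library 8 *PGRP-SC2* was at 3.46 and *CG8560* at 3.32, and without library 1 *Pebp1* was at 3.91. *asRNA:CR44370* had 717 and 710.2 CPM in libraries 6 and 8 and at most 78.6 elsewhere. *CG8560* had 1736 CPM in library 8 and at most 178 elsewhere, and *Pebp1* 1887 CPM in library 1 and at most 457 elsewhere. *CG15423* was more even, at 748 CPM in library 1 and 10.04 to 261 in the others. The 5 largest decreases were *Nlg3*, *rad*, *CG46301*, *side-II* and *para*. *Nlg3* is a neuroligin and *para* the voltage-gated sodium channel of neurons, which was at 0 to 37.3 CPM in cluster 3 and at 34.6 to 231 CPM in all other nuclei.

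Against the gut stem cells only 1208 genes passed the filter on low counts, because both sums were small. Of these 313 (25.9%) were called higher and 143 (11.8%) lower in cluster 3, and without library 4 290 of 1210 (24.0%) and 148 (12.2%), with 263 and 128 genes shared. TMM mattered more here, since with library totals alone the median of all genes fell by 0.61 on the log2 scale and the counts became 222 higher and 325 lower. Only 8 of the 52 digestive genes could be fitted, with a median of 5.41 (4.04 without library 4). Since they passed the filter through cluster 3, where they are high, their calls carry no information on the list. *MtnA* had a log2 fold change of 5.76 ± 0.86 (SE), and 4.58 without library 4. *CG18180* had the largest, 6.28 ± 1.03 (5.58 without library 4, and 4.65 with the library as a block, where *Lcp1* was higher at 5.48), with 9158 CPM in library 8 and 99.6 to 2369 in the others against 19.1 to 138 in cluster 21. The rest of the 10 largest were transcripts of other organs (*Lcp1*, *Lcp3*, *Lcp4*, *Sgs7*, *Sgs8* and *Act57B*) besides *CG15353* and *CG42500*. *Lcp1*, a larval cuticle protein, was at 240 to 22561 CPM in cluster 3, at 152 to 798 CPM in cluster 21 and at 5686 to 68680 CPM in all other nuclei. Ribosomal protein genes were called higher in 78 of 79 cases, with a median of 3.60 that fell to 1.70 without library 4.

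Genes of the gut stem cells were lower. *CG43187* was at 0 to 228 CPM in cluster 3 and at 1574 to 2699 CPM in cluster 21, a log2 fold change of -6.14 ± 0.79 (SE), and -5.78 ± 0.64 without library 4. *Dgk*, a diacylglycerol kinase, was at 0 to 65.4 CPM against 524 to 916 CPM. *Trim9*, a ubiquitin ligase, was at 0 to 230 CPM against 1281 to 2136 CPM, and *rau* and *CG12290* completed the 5 largest decreases. *zfh2*, a transcription factor on the progenitor list, was at 9.27 to 1262 CPM against 2900 to 4279 CPM, with a log2 fold change of -2.02 ± 0.54 (SE) and -1.87 ± 0.43 without library 4. *esg*, which keeps progenitors undifferentiated, was at 0 to 44.3 CPM against 53.8 to 192 CPM. The 5 largest decreases were picked from these same sums, so any separation of their ranges follows from that choice. *esg* in cluster 3 was under 3 counts in every library except library 4. In those libraries 3 counts equal up to 163 CPM, so its values rest on few counts. The summed share of the 8 progenitor genes was below cluster 21 of the same library in 8 of 8, but the ranges overlapped, at 0.0303% in library 4 to 0.79996% in library 8 against 0.777 to 0.930%.

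Cuticle, glue, fat body and muscle genes were among the most abundant transcripts. In cluster 3 as a whole the first 10 were *CG42500*, *Obp99b*, *Lcp1*, *eEF1alpha1*, *Lcp4*, *Sgs7*, *Lsp1beta*, *Mlc2*, *Lcp2* and *Fbp2*, at 16183 down to 6696 CPM. Without library 4 they were *lncRNA:Hsromega* (20927 CPM), *Obp99b*, *Lcp1*, *CG42500*, *br*, *lncRNA:roX1*, *Jon65Aiv*, *Lcp4*, *CG34166* and *aqz* (4809 CPM). *Jon65Aiv* was the only digestive gene on either list. *Lsp1beta*, a storage protein of the fat body, was at 894 to 9616 CPM in cluster 3 and at 708 to 6017 CPM in all other nuclei, which overlapped.

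The study assigned secreted proteins to tissues by proximity labelling and mass spectrometry, a readout that did not use these libraries. Of the 87 proteins assigned to the gut alone, 85 had a gene in the matrix and 60 could be fitted against all other nuclei. Of these 23 were called higher and 2 lower, beside 6.33 and 7.68% of all genes, with a median log2 fold change of 0.36. Some of the 60 could pass the filter on low counts through cluster 3, where they are high, so the count only describes them. *Alp9*, called higher, was at 23.4 CPM on average in cluster 3 and at 1.83 CPM in all other nuclei. Without library 4 it was 17 of 57 higher and 2 lower, with a median of 0.01. Of proteins not assigned to the gut, 19 of 273 were called higher. The largest gut-only values after *mesh* were *CG9672* at 4.95 ± 0.70 (SE) and *Jon65Aiii* at 4.51 ± 0.89. *Jon65Aiv* and *Jon66Ci* followed at 4.16 and 4.31, with *CG5506* at 4.37 and *hiro* at 4.19. *Lerp*, a receptor that sorts lysosomal proteins, was at 1.91 ± 0.43, and *drpr*, an engulfment receptor, at 0.04 ± 0.35. Against the gut stem cells 11 could be fitted, with 2 higher and 4 lower (3 and 4 without library 4), beside 25.9 and 11.8% of all genes.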

How the data were processed

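Nuclei of 8 pooled larval samples were profiled with the 10x 3′ kit. The authors counted UMIs with Cell Ranger (version 7.1.0, build BDGP6), subtracted ambient RNA with DecontX, filtered nuclei, removed doublets, joined libraries with Harmony and clustered them. The deposited values are these corrected, estimated counts, and a second deposited table gives each nucleus its cluster. No doublet caller was run again. Nuclei held at least 77 genes and 80.4 UMIs. The members and gene lists were chosen with earlier results of these data known.

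Corrected counts were summed per library over cluster 3, cluster 21 and all other nuclei, and divided by the group's total for CPM. For edgeR 4.0.16 (TMM factors, filterByExpr, quasi-likelihood test) and DESeq2 1.42.0 sums were rounded to whole counts. Both sums of a library come from the same animals, so replicate numbers pair them. Deviations of same-numbered sums correlated at 0.101 to 0.491 against all other nuclei (median -0.04 for other numbers) and at -0.259 to 0.177 against cluster 21, and the fit without the block was kept as the main one. On simulated sums the fit recovered known changes, with fold changes against all other nuclei estimated too low where sums were small. These sums had a common profile and the same fixed dispersion for all genes, and only genes of moderate counts were changed. Recovery at the spread seen between these libraries was not tested. Single values were compared by exact sign-flip permutation over libraries. Samples carry one label each and may share more than the labels say, so p-values measure the spread between these libraries. A gene was found in a nucleus from a corrected count of 0.5. R 4.3.3 and Python 3.11.15 were used, the latter with pandas 2.3.3, numpy 2.4.6, matplotlib 3.10.9 and scipy 1.17.1, and positions are from the BDGP6.54 annotation.

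Of 278 entries in 29 lists, 263 were in the matrix, 4 under a synonym. Named were the 5 markers, genes of the lists, the 10 largest positive and 5 largest negative fold changes among called genes with at least 50 CPM in the higher group, and the 10 genes of highest level with and without library 4. Alternatives left out each library, nuclei with under 200 genes or shared barcodes, TMM, or the filter on low counts, or used DESeq2 or a block for the library. No per-sample column was left unused.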

Additional observations from a re-analysis of the deposited data

Results flagged for a closer look

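Of 37 values checked over the 8 libraries, 8 had a library far from the rest by Dixon's criterion, which chance alone gives for about 1 in 20. Library 4 stood apart in the share of nuclei in cluster 3 (27.9%, next 4.32%) and in ribosomal protein genes (28.6% of UMIs, next 8.20%). Its visceral muscle share of 0.000116% beside 0 elsewhere is about 1 count in the deepest sum, and carries no information. Library 1 stood apart in the 5 markers (1.20%, next 0.525%), in the smooth septate junction genes (0.120%, next 0.0189%) and in antimicrobial peptide genes (0.0797%, next 0.0407%). Library 8 stood apart in carbohydrases (0.289%, next 0.124%) and in gut immunity genes (0.790%, next 0.104%), the latter through *PGRP-SC2*.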

How the results depend on the processing

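The digestive, metal-handling and salivary glue lists kept their direction without library 4, without TMM factors, with DESeq2, with a block and without the filter on low counts. Counts of calls moved with the setting. Against all other nuclei 494 genes were higher and 599 lower. The number higher was 288 without library 4, 516 without library 2, 1367 with DESeq2 and 1808 with a filter at a total count of 10, and the number lower was 384 with DESeq2 and 396 without TMM. Against the gut stem cells the filter at 10 gave 2296 higher and 886 lower, and library totals gave 325 lower. With the library as a block, 366 were higher and 840 lower against all other nuclei, and 242 and 160 against the gut stem cells. Leaving out each library in turn, the difference in median UMIs to the gut stem cells was -763.3 to -637.39 and that in genes -335.64 to -228.43. The adjusted p of both was above 0.05 except without library 3, but 7 pairs allow no raw p under 0.0156 and median UMIs were lower in 7 of 7 each time. With nuclei of at least 200 genes the latter was -242.19, adjusted p = 0.0625 by the exact permutation test. The difference in UMIs to all other nuclei was -288.74 to -133.93 and passed the test without library 3.

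Several named transcripts, none of them called against all other nuclei, changed sign on the log2 scale. Leaving out each library in turn gave -0.55 to 0.88 for *Act57B*, -0.92 to 0.24 for *CG12290*, -0.12 to 0.29 for *Lsp1beta*, -0.17 to 1.07 for *Mlc2* and -0.37 to 0.31 for *eEF1alpha1*, the turn coming without library 4. The block gave -0.0053 for *Act57B*, -0.019 for *Lsp1beta* and -0.086 for *eEF1alpha1*. DESeq2 gave -0.25 for *Act57B*, 0.22 for *CG12290*, 0.31 for *Fbp2*, 0.0034 for *Obp99b* and 0.0087 for *br*, and the filter at 10 gave 0.036 for *Fbp2*. Against the gut stem cells that filter gave -0.0015868 for *aqz* and -0.016 for *lncRNA:Hsromega*. The cause was not tested. Every library held at least 20 nuclei of each cluster, so restricting to such libraries was the main fit itself. Depth limits the sums of libraries 3 and 5, where 3 counts equal 112 and 163 CPM.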
